A study of Mus musculus with 10 samples.

Results

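Amino acid transporters were followed in mouse CD8+ T cells cultured with or without N-acetylcysteine (NAC), a thiol compound from which cells can draw cysteine and so make glutathione. The genes were chosen by name alone: the SLC1, SLC7, SLC36, SLC38 and SLC43 families, Slc3a1 and Slc3a2, and Slc6a6, Slc6a9 and Slc6a20a from SLC6, with Slc7a11 left out. This rule matched 45 of the 21898 rows of the deposited table. One of them, Slc7a6os, shares the start of its name with Slc7a6 but encodes no transporter, which leaves 44 transporter genes: 7 of SLC1, 2 of SLC3, 3 of SLC6, 14 of SLC7, 4 of SLC36, 11 of SLC38 and 3 of SLC43. All cells came from the spleen of wild-type mice and were kept for 5 days in normal medium (control) or in medium with 10 mM NAC. Each group had 5 libraries of bulk RNA, numbered 1 to 5. Separate mice or cultures behind the libraries are not named in the labels, so the p-values cover the spread between libraries only, and that spread may be technical.

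Free amino acids cross the membrane through carriers such as these. A T cell that has been activated takes up far more leucine, glutamine and arginine than a resting one. System L exchangers pair a light chain of SLC7 with the heavy chain CD98, encoded by Slc3a2, and export one amino acid, often glutamine, for each leucine or other large neutral amino acid they bring in. Sodium-coupled carriers of SLC1 and SLC38 load the cell with small neutral amino acids, and carriers on the lysosome report its amino acid content to the growth kinase complex mTORC1.

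The libraries held 13.3 to 17.71 M reads assigned to genes. On the first principal component, which held 50.8% of the variance, libraries 1 and 2 were separated from libraries 3 to 5 in each group. Against the CD8+ label, libraries 1 and 2 carried 465 to 521 CPM (read counts scaled to a common library size of 1 M) of Cd4, where the other libraries had 0.766 to 2.76, and they had less Cd8a, 202 to 271 against 488 to 667 CPM. The 4 CD4 T cell markers summed to 624.7 to 646.9 CPM in control libraries 1 and 2, 598.6 to 689.1 in NAC libraries 1 and 2, 20 to 22.58 in control libraries 3 to 5 and 31.37 to 35.01 in NAC libraries 3 to 5. The 7 genes of the CD8 T cell list summed to 1496 to 1580, 2227 to 2284, 2131 to 2159 and 2711 to 2860 CPM in the same order. Beside Cd8a and Cd8b1, this list holds the general T cell genes Cd3d, Cd3e, Cd3g, Lck and Zap70. Its sum therefore does not measure CD8 T cells alone. All list sums were scaled by library size alone, while the CPM of single genes were also TMM-normalized, so the scales differ. Markers of other cells were low, and some of their sums moved with NAC. In the B cell, monocyte and dendritic cell lists, 4 of 6, 5 of 6 and 4 of 5 genes stayed below 1 CPM in every library. Most of each sum came from a single gene: Cd79b, Cd68 and Zbtb46. Not all genes followed these, as Ms4a1 and Adgre1 were lower with NAC in libraries 1 and 2. The B cell sum was 2.485 to 3.234 CPM without and 11.2 to 11.76 CPM with NAC in libraries 1 and 2, and 5.865 to 8.595 against 11.74 to 13.52 CPM in libraries 3 to 5. The monocyte and macrophage sum went from 6.721 to 7.322 CPM up to 10.73 to 12.7 CPM in libraries 1 and 2 and overlapped in libraries 3 to 5. The dendritic cell sum, with Clec9a and Siglech at 0, was lower with NAC in both sets (8.299 to 10.28 against 4.915 to 5.494 CPM, and 15.27 to 17.02 against 11.71 to 12.78 CPM). The erythroid sum stayed at or below 0.6463 CPM, and the natural killer sum lay between 30.69 and 56.7 CPM. Nearly all of the natural killer sum came from Eomes, at 30.3 to 55.4 CPM. Ncr1 and Klrb1c stayed below 1 CPM in every library, and Klre1 reached at most 3.15 CPM. Ribosomal protein genes took 6.90 to 6.95% of the reads in control libraries 1 and 2, 9.01 to 11.5% in NAC libraries 1 and 2 and 8.59 to 9.48% in the rest. The part that these differences play in the results was not tested, and fewer cells of a type cannot be told apart from less RNA per cell. Each result is therefore given over all libraries and within each set.

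Of the 44 transporters, 22 had enough reads to be tested and 22 did not. Of the untested genes, 8 had no read in any library, and 12 of the 22 stayed under 3 reads in every library, a level equal to 0.169 to 0.226 CPM. The highest of them was Slc7a4, with 5, 10, 3, 1 and 0 reads in control libraries 1 to 5 and 36, 37, 0, 3 and 7 in NAC libraries 1 to 5. Most reads on Slc7a4 thus fell in libraries 1 and 2, and more of them in those with NAC. When every gene with at least 1 read was tested, it was called higher in libraries 1 and 2 (log2 2.37 ± 0.64, edgeR adjusted p = 0.00327), as it was with these libraries fitted alone (log2 2.40 ± 0.46, adjusted p = 0.0039). The filter kept genes that reached a level in at least 5 libraries of either group, so the 22 tested genes are not the whole set. Libraries 1 and 2 of both groups are too few to pass a gene by themselves.

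Per unit of gene length, the carriers were dominated by the glutamine and leucine exchange genes. The mean level over the 10 libraries was 162 FPKM (read count per kilobase of gene and 1 M reads, as deposited) for Slc1a5, which exchanges glutamine and other neutral amino acids. It was 127 FPKM for Slc7a5, the system L light chain LAT1, and 109 FPKM for Slc3a2. This order held in each of the 10 libraries, although Slc7a5 and Slc3a2 lay close together in NAC library 1, with 17.4% and 17.0% of the summed FPKM of all 44 transporters. The next 4 genes lay between 33.5 and 38.2 FPKM on average and changed places from library to library: Slc7a1, Slc43a3, Slc38a2 and Slc6a6. Another 5 lay between 17.0 and 23.8 FPKM: Slc38a1, Slc7a3, Slc7a6, Slc38a10 and Slc1a4. The remaining 10 tested carriers averaged below 10 FPKM, from 7.13 for Slc6a9 down to 0.302 for Slc7a7.

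The summed FPKM of the transporters was 485 and 491 in control libraries 1 and 2, and 386 and 389 in NAC libraries 1 and 2. In libraries 3, 4 and 5 it was 847, 852 and 837 without NAC and 809, 810.2 and 804 with it. In both sets every control library lay above every NAC library, and the gap between the sets was wider than the gap between the groups. Slc1a5, Slc7a5 and Slc3a2 together made up 52.9 and 54.2% of the sum in control libraries 1 and 2 and 61.3 to 62.4% in control libraries 3 to 5. With NAC they made up 60.2, 54.2, 59.9, 58.6 and 60.4% in libraries 1 to 5.

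**Figure D1:**
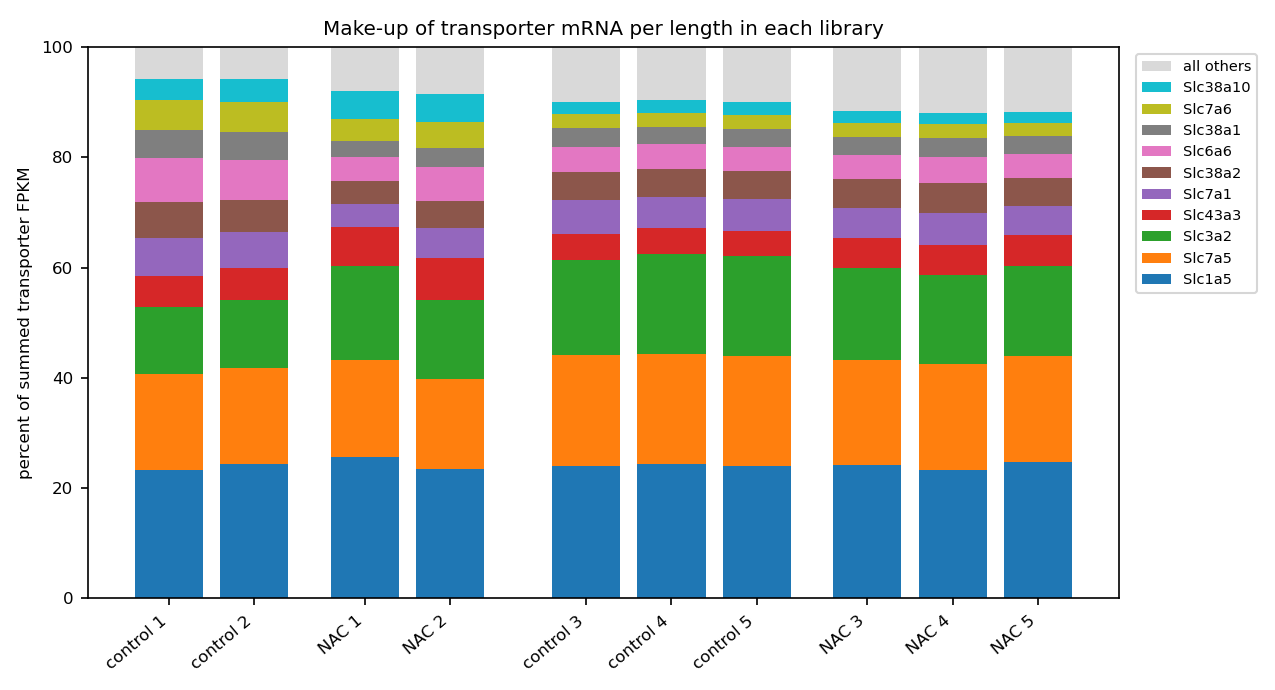
Share of the summed FPKM of the 44 transporters, the purine base carrier Slc43a3 included, taken by single carriers in each of the 10 libraries, as stacked bars from 0 to 100%. The 3 lowest blocks, Slc1a5, Slc7a5 and Slc3a2, fill 52.9 to 62.4% of every bar.

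Over all 10 libraries, NAC went with a change in 2 of the 22 tested transporters: Slc43a2 rose and Slc7a6 fell. That is 9.09% of them, against 11.6% of all 11403 genes tested, of which 6.69% were higher and 4.88% lower (edgeR's quasi-likelihood test, Benjamini-Hochberg adjusted p below 0.05). The share of called genes among the transporters is near that of all genes, so these counts show no excess of change in the family. The median log2 fold change of the 22 was -0.07, and that of all tested genes 0.01. The counts moved with the fit, for the transporters as for all genes. With libraries 3 to 5 fitted alone, 7 of 22 were called higher and 8 lower (68.2%), beside 23.7% and 25% of all genes (48.7% in all). With libraries 1 and 2 fitted alone, 3 of 24 were called higher and 8 lower (45.8%), beside 23.7% and 20.1% of all genes (43.8% in all). With a term for the library set, 5 of 22 were called higher and 6 lower (50%), beside 20.1% and 16.4% (36.4% in all). With the library number as a block, 4 were called higher and 0 lower, beside 11.5% and 8.22% of all genes (19.8% in all). Log2 fold changes below are NAC minus control, with the standard error after the sign ±.

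Slc43a2 encodes LAT4, a facilitative carrier of branched-chain amino acids, phenylalanine and methionine that needs no heavy chain. Its gene, on chromosome 11 (ENSMUSG00000038178), was at 16.5, 17.8, 16.8, 15.8 and 18.2 CPM in control libraries 1 to 5 and at 18.8, 27.7, 26.1, 29.7 and 24.6 CPM in NAC libraries 1 to 5. No NAC library was as low as any control library, and NAC library 1 was the closest to the controls. Over all libraries the groups did not overlap in 2 of the 22 tested transporters, Slc43a2 and Slc7a6, beside 16.4% of all genes tested. The mean went from 17.0 ± 0.989 to 25.4 ± 4.14 CPM (SD, n = 5), a log2 fold change of 0.58 ± 0.13 or 1.49-fold (edgeR, adjusted p = 0.0188). The log2 fold change of libraries 1 and 2 was 0.44 ± 0.16 (adjusted p = 0.0317), a call that ended without control 1, control 2 or NAC 2. That of libraries 3 to 5 was 0.66 ± 0.13 (adjusted p = 0.00265). The difference between those effects was -0.22 (adjusted p = 0.409). Libraries 1 and 2 fitted alone gave 0.41 with an adjusted p of 0.12. An antisense gene, Gm45606, overlaps its exons over 922 bases, and the sources used here do not state whether counting used the strand. Its level per length was low, with a mean of 2.12 FPKM.

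Slc7a6 encodes y+LAT2, a light chain that exchanges cationic for neutral amino acids together with CD98. On chromosome 8 (ENSMUSG00000031904), it stood at 121, 122, 101, 100.3 and 102 CPM in control libraries 1 to 5. With NAC it stood at 71.0, 80.2, 91.9, 90.7 and 90.0 CPM. All NAC libraries were below all control libraries, with the widest gap in libraries 1 and 2. The mean went from 109 ± 11.2 to 84.8 ± 9.02 CPM (SD, n = 5), a log2 fold change of -0.37 ± 0.10, or 1.29-fold lower (edgeR, adjusted p = 0.0396). In libraries 1 and 2 the gene fell by 0.69 ± 0.07 on the log2 scale (adjusted p = 3.72e-06). In libraries 3 to 5 the value was -0.15 ± 0.06 (adjusted p = 0.0624), and the effects of the sets differed (log2 difference -0.53 ± 0.09, adjusted p = 0.000641). Slc7a6 was called lower in libraries 3 to 5 when they were fitted alone or without NAC 1 or NAC 2. The call over all libraries ended with the replicate block (log2 -0.37 ± 0.12, adjusted p = 0.0595) and when any library other than NAC 1 was left out (adjusted p = 0.0549 to 0.095). The neighbouring name Slc7a6os, whose exons do not overlap those of Slc7a6, was at 68.3 to 75.7 CPM without and 58.2 to 71.3 CPM with NAC (log2 -0.13 ± 0.08, adjusted p = 0.303).

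The other transporters did not pass the test over all libraries, where the distance between the sets enters the standard error. That error was widest for Slc7a3 (log2 0.07 ± 0.87, adjusted p = 0.965) and Slc6a9 (log2 0.21 ± 0.75, adjusted p = 0.878). Several carriers had negative values: -0.38 ± 0.25 for Slc38a1 (adjusted p = 0.333), -0.37 ± 0.20 for Slc6a6 (0.232), -0.36 ± 0.29 for Slc7a1 (0.443) and -0.23 ± 0.29 for Slc38a2 (0.63). Slc7a5 was at -0.22 ± 0.33 (0.694), Slc3a2 at -0.17 ± 0.36 (0.78) and Slc1a5 at -0.17 ± 0.28 (0.728). An adjusted p above the threshold does not show that these genes were level between the groups. With a term for the library set, several of them were called lower: Slc38a1 at -0.48 ± 0.15 (adjusted p = 0.0279), Slc6a6 at -0.43 ± 0.14 (0.0343), Slc7a1 at -0.45 ± 0.12 (0.0128), Slc7a5 at -0.26 ± 0.07 (0.0108) and Slc1a5 at -0.19 ± 0.07 (0.0424). In that fit Slc6a9 was called higher, at 0.30 ± 0.10 (0.0314).

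Within libraries 1 and 2, 6 of the 22 tested transporters rose with NAC and 9 fell, or 68.2%, where 60.5% of all genes tested were called (32.2% higher and 28.3% lower). Those that fell were the sodium-coupled carriers Slc38a1 and Slc38a2, the taurine carrier Slc6a6, the arginine carrier Slc7a1, Slc7a5, Slc7a6, Slc1a5, Slc36a4 and Slc38a7. Those that rose were Slc7a3, Slc43a1, Slc6a9, Slc38a9, Slc43a2 and Slc1a4, none of which was above 28.5 CPM in these libraries. The median log2 fold change of the 22 was -0.22, beside 0.04 for all genes. With 2 libraries a group, 74.1% of all genes had groups that do not overlap, and 17 of the 22 transporters did. The spread in this comparison is shared with libraries 3 to 5. The share of ribosomal protein reads and the sum of the CD8 list, mostly general T cell genes, were also higher with NAC in these libraries. Their part in the counts was not tested. With these libraries fitted alone, the calls of Slc1a4, Slc1a5, Slc38a9, Slc43a2 and Slc6a9 ended.

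Within libraries 3 to 5, 4 of the 22 rose and 3 fell, or 31.8%, where 29% of all genes were called (15% higher and 14% lower). Slc43a2, Slc36a4, Slc38a9 and Slc1a4 rose, and Slc3a2, Slc38a10 and Slc7a5 fell, all by less than 1 on the log2 scale. Groups did not overlap for 14 of the 22, beside 54.6% of all genes. The sums of the CD4 list and of the CD8 list, the latter mostly general T cell genes, were also higher with NAC in this set. Their part was not tested. The median log2 fold change was -0.03, and that of all genes 0.00. Changes were smaller in this set, for transporters as for all genes: the median size of the log2 fold change was 0.187 for the 22 and 0.183 for all genes, beside 0.506 and 0.417 in libraries 1 and 2. The counts of this set rest on single libraries: without control 4, control 5, NAC 4 or NAC 5, 0 transporters were called lower, and without control 3 or NAC 3 only 1 was. The shares of all genes without single libraries are not given here. With this set fitted alone, the counts were 7 higher and 8 lower (68.2%), beside 48.7% of all genes. That fit added Slc43a1, Slc43a3 and Slc6a9 as higher and Slc1a5, Slc38a1, Slc6a6, Slc7a1 and Slc7a6 as lower. The same genes were added without NAC 1 or NAC 2.

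The effect of NAC differed between the sets in 9 of the 22 transporters, or 40.9%, where 41.9% of all genes tested differed. In 8 of the 9 the log2 fold change was lower in libraries 1 and 2, or 36.4% of the 22, beside 20% of all genes. In Slc7a3 it was higher, or 4.55% of the 22, beside 21.9% of all genes. Of the 22, 17 had the same sign in both sets, beside 64.4% of all genes, and 4 were called the same way in both (18.2% of all genes): Slc1a4, Slc38a9 and Slc43a2 rose and Slc7a5 fell. Slc36a4 was called in opposite directions, as were 2.76% of all genes.

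**Figure D2:**
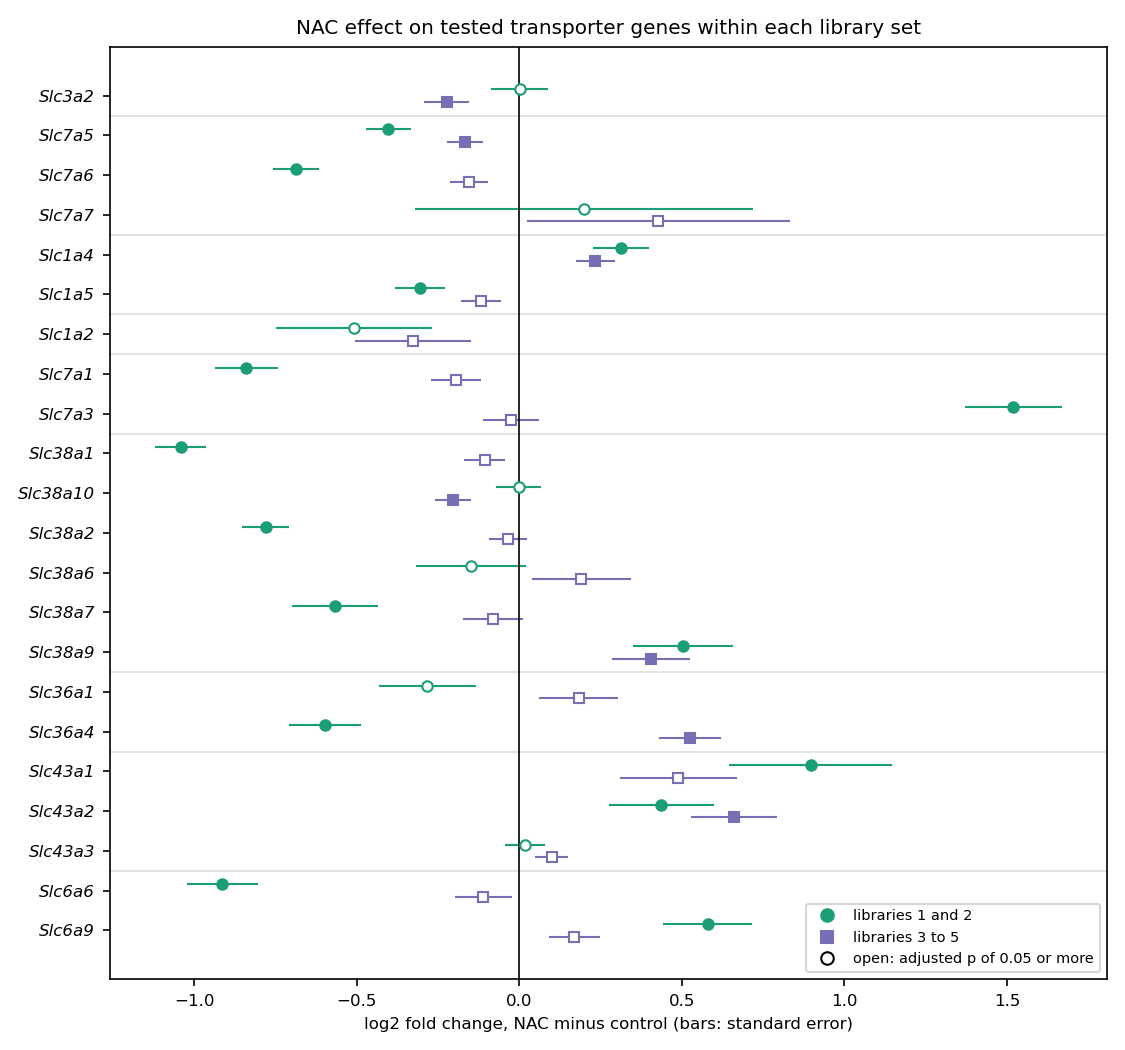
Log2 fold change, NAC minus control, of the 22 tested transporters and its standard error (bars) in libraries 1 and 2 (circles) and in libraries 3 to 5 (squares), with open symbols for an adjusted p of 0.05 or more. In libraries 1 and 2 Slc7a3 lies farthest right at 1.52 and Slc38a1 farthest left at -1.04, and the filled symbols of Slc36a4 lie on opposite sides of 0.

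The CD98 heavy chain and its system L partner shared their direction in libraries 3 to 5. Slc3a2 (chromosome 19, ENSMUSG00000010095) was at 208, 214, 524, 555 and 548 CPM in control libraries 1 to 5 and at 234, 189, 473, 455 and 467 CPM in NAC libraries 1 to 5. The groups crossed in libraries 1 and 2 and were apart in libraries 3 to 5. The log2 fold change was 0.00 ± 0.09 in the first set (adjusted p = 0.992) and -0.22 ± 0.07 in the second (adjusted p = 0.0298), and the difference between them was 0.22 (adjusted p = 0.123). The call of Slc3a2 in libraries 3 to 5 ended without any single library of that set.

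Slc7a5 (chromosome 8, ENSMUSG00000040010) was at 316, 313, 639.9, 649 and 635 CPM without NAC and at 252, 224, 569.7, 573 and 571 CPM with it. Each NAC library was below the control library of its number. Slc7a5 fell by 0.40 ± 0.07 on the log2 scale in libraries 1 and 2 (adjusted p = 0.000245) and by 0.17 ± 0.06 in libraries 3 to 5 (adjusted p = 0.0387). The call in libraries 3 to 5 ended without any of these libraries other than NAC 1 and NAC 2, with library size alone and with a filter of at least 1 read. The difference between the sets, -0.24 ± 0.09, was near the threshold (adjusted p = 0.047), and its call ended without any single control library, NAC 3, NAC 4 or NAC 5.

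The light chain sum covered the 9 such genes of the set, chiefly Slc7a5 and Slc7a6, without Slc7a11. It was 1.90 and 1.84 times the FPKM of Slc3a2 in control libraries 1 and 2. In NAC libraries 1 and 2 it was 1.27 and 1.46 times that of Slc3a2. In libraries 3 to 5 the ratio was 1.31, 1.25 and 1.25 without NAC and 1.30, 1.36 and 1.32 with it. The ratio was thus lower with NAC in the first set, and the groups overlapped in the second. Slc7a7, the third tested light chain, stood at 0.452 to 1.46 CPM in all libraries (log2 0.33 ± 0.35, adjusted p = 0.565).

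The SLC1 exchangers moved apart. Slc1a5 (chromosome 7, ENSMUSG00000001918) was at 471, 496, 867, 888 and 859.7 CPM in control libraries 1 to 5 and at 418, 366, 808, 777 and 825 CPM in NAC libraries 1 to 5. Every NAC library lay below the controls of its set. Slc1a5 fell by 0.30 ± 0.08 on the log2 scale in libraries 1 and 2 (adjusted p = 0.00398), and the value in libraries 3 to 5 was -0.12 ± 0.06 (adjusted p = 0.176). Slc1a5 was called lower in libraries 3 to 5 when they were fitted alone or without NAC 1 or NAC 2.

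Slc1a4, a carrier of alanine, serine, cysteine and threonine (chromosome 11, ENSMUSG00000020142), was at 21.5, 20.3, 90.0, 85.2 and 89.2 CPM without NAC. With NAC it was at 26.6, 25.3, 103, 108 and 99.9 CPM. All NAC libraries lay above the controls of their set, while the sets differed far more than the groups. It rose by 0.31 ± 0.09 on the log2 scale in the first set (adjusted p = 0.00633) and by 0.23 ± 0.06 in the second (adjusted p = 0.011), where the call ended without control 4 or NAC 4. The call in the first set ended with libraries 1 and 2 fitted alone. Over all libraries it was 0.25 ± 0.56 without the replicate block (adjusted p = 0.798) and 0.26 ± 0.07 with it (adjusted p = 0.0403). Slc1a2, a glutamate carrier, was at 3.78 to 8.04 CPM and passed the test in neither set.

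The carriers of arginine and lysine went opposite ways in libraries 1 and 2. Slc7a1, the cationic carrier CAT1 (chromosome 5, ENSMUSG00000041313), was at 384, 371, 596, 567 and 566 CPM in control libraries 1 to 5 and at 186, 236, 488, 534 and 491 CPM in NAC libraries 1 to 5. Slc7a1 was below the controls of its set in every NAC library, by the widest margin in libraries 1 and 2. It fell by 0.84 ± 0.10 on the log2 scale in libraries 1 and 2 (adjusted p = 8.48e-06), the value in libraries 3 to 5 was -0.19 ± 0.08 (adjusted p = 0.0763), and the effects differed by -0.65 ± 0.12 (adjusted p = 0.00121). Slc7a1 was called lower in libraries 3 to 5 when they were fitted alone or without NAC 1 or NAC 2.

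Slc7a3, the cationic carrier CAT3 (chromosome X, ENSMUSG00000031297), was at 7.35, 6.49, 126, 129.8 and 127 CPM without NAC. It was at 23.4, 16.4, 127, 120.1 and 129.7 CPM with it. The level depended mainly on the set, and the groups overlapped in libraries 3 to 5. In libraries 1 and 2 it rose by 1.52 ± 0.15 on the log2 scale, or 2.87-fold (adjusted p = 2.43e-06), while libraries 3 to 5 gave -0.03 ± 0.09 (adjusted p = 0.857). The effects differed by 1.54 ± 0.17 (adjusted p = 3.42e-05). The FPKM of Slc7a1 was 17.1 and 18.8 times that of Slc7a3 in control libraries 1 and 2, 2.62 and 4.72 times in NAC libraries 1 and 2, and 1.24 to 1.55 times in all other libraries.

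**Figure D3:**
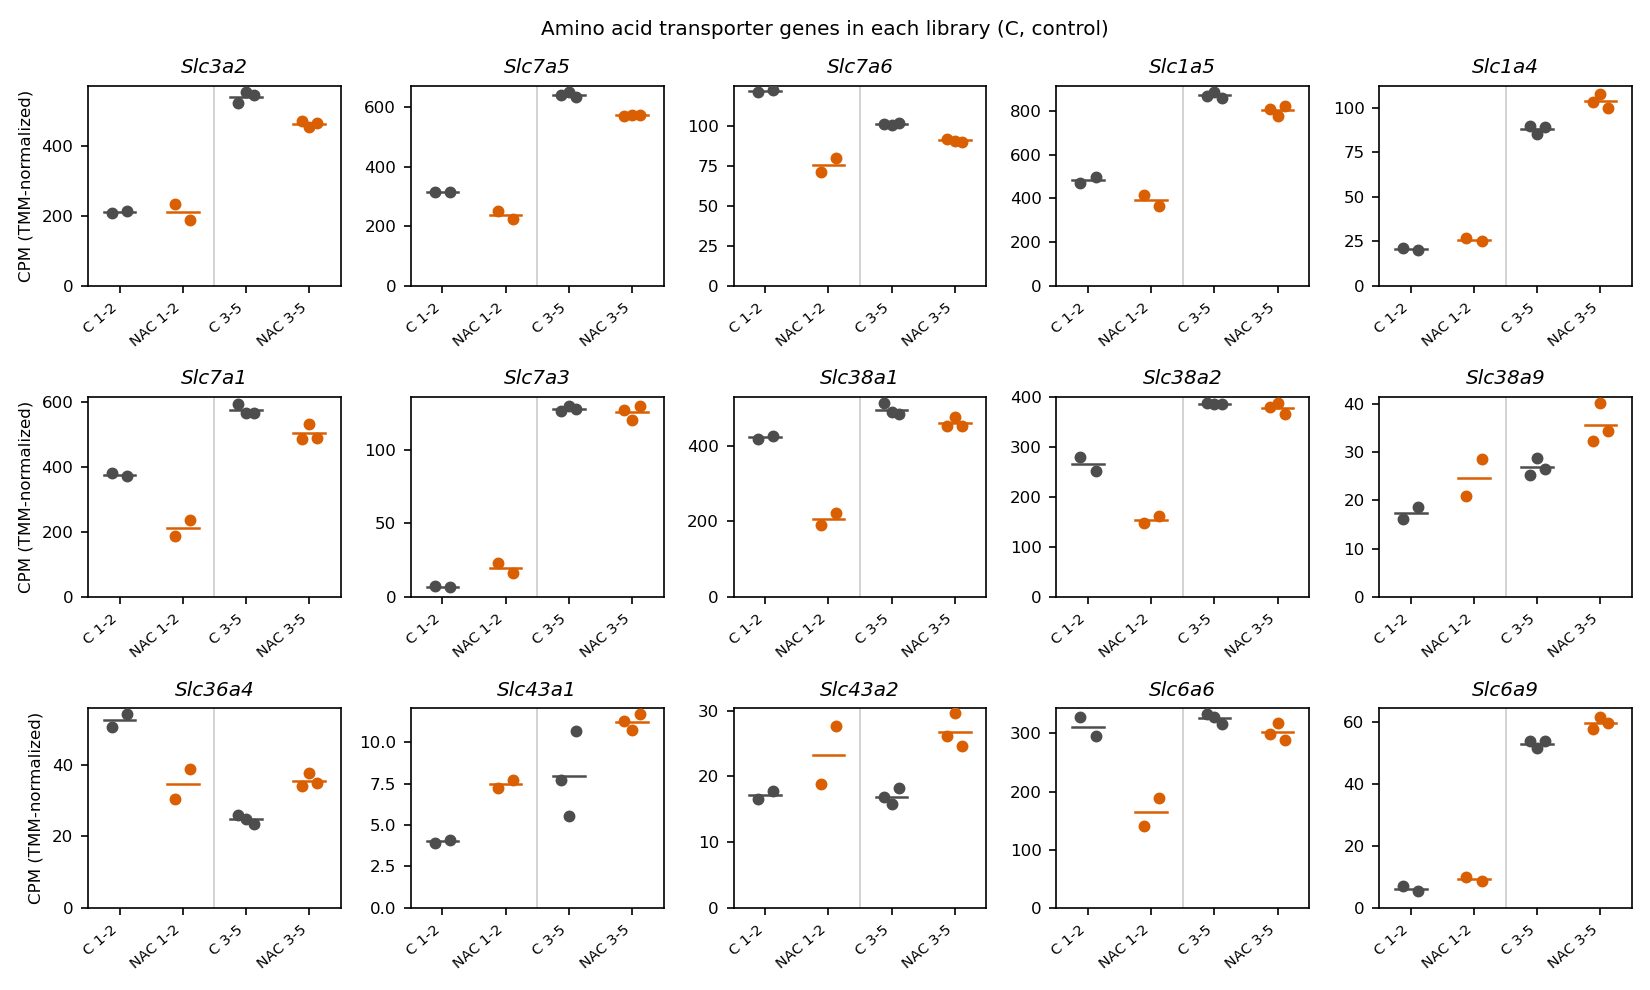
Level of 15 transporters in TMM-normalized CPM (linear axes from 0), 1 point per library, with control in grey, NAC in orange and the mean of each group and set as a line. Slc43a2 is higher and Slc7a6 lower in all NAC libraries, and Slc7a3 spans 6.49 to 129.8 CPM in the control libraries.

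Among the SNAT carriers of SLC38, the plasma membrane pair fell together in libraries 1 and 2. Slc38a1, which brings in glutamine and other neutral amino acids with sodium (chromosome 15, ENSMUSG00000023169), was at 419, 426, 513, 488 and 485 CPM in control libraries 1 to 5. In NAC libraries 1 to 5 it was at 189, 221, 451, 477 and 452 CPM. In the first set no NAC library came near a control library. Slc38a1 fell by 1.04 ± 0.08 on the log2 scale in libraries 1 and 2, or 2.06-fold (adjusted p = 2.76e-07). The value in libraries 3 to 5 was -0.11 ± 0.06 (adjusted p = 0.225), though it was called lower with that set fitted alone or without NAC 1 or NAC 2. Of all genes tested, 4.47% fell at least as far in libraries 1 and 2.

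Slc38a2, a second carrier of this type that cells raise when amino acids run short (chromosome 15, ENSMUSG00000022462), was at 280.3, 252, 389, 386 and 388 CPM without NAC and at 147, 163, 380.5, 388 and 367 CPM with it. It fell by 0.78 ± 0.07 on the log2 scale in libraries 1 and 2, or 1.72-fold (adjusted p = 1.63e-06). The groups overlapped in libraries 3 to 5 (log2 -0.03 ± 0.06, adjusted p = 0.697), and the effects differed by -0.75 ± 0.09 (adjusted p = 7.28e-05). For Slc38a1 that difference was -0.93 ± 0.10 (adjusted p = 2.54e-05).

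The lysosomal members of the family differed from each other. Slc38a9, which senses arginine in the lysosome for mTORC1 (chromosome 13, ENSMUSG00000047789), was at 16.1, 18.7, 25.3, 28.7 and 26.4 CPM in control libraries 1 to 5 and at 20.8, 28.5, 32.2, 40.2 and 34.4 CPM in NAC libraries 1 to 5. All NAC libraries were above the controls of their set. Slc38a9 rose by 0.50 ± 0.15 on the log2 scale in the first set (adjusted p = 0.0126) and by 0.41 ± 0.12 in the second (adjusted p = 0.0226). The first call ended without control 1 or NAC 2 and with libraries 1 and 2 fitted alone, and the second ended without control 3, control 5, NAC 4 or NAC 5. Over all libraries it was 0.44 ± 0.20 (adjusted p = 0.169), and with the replicate block 0.44 ± 0.09 (adjusted p = 0.0153). The antisense gene Gm47827 overlaps its exons over 182 bases.

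Slc38a7, which exports glutamine from the lysosome (chromosome 8, ENSMUSG00000036534), was at 12.6, 14.5, 25.6, 25.9 and 28.5 CPM without NAC and at 9.20, 9.08, 23.1, 26.9 and 25.8 CPM with it. It fell by 0.57 ± 0.13 on the log2 scale in libraries 1 and 2 (adjusted p = 0.0022), and the groups overlapped in libraries 3 to 5 (log2 -0.08 ± 0.09, adjusted p = 0.54). The difference of the effects, -0.49 ± 0.16 (adjusted p = 0.0267), was no longer called without control 2, control 4, NAC 4 or NAC 5. Slc38a10 fell in libraries 3 to 5, where it went from 119, 126 and 123 to 111, 107 and 103 CPM (log2 -0.20 ± 0.06, adjusted p = 0.0167), a call that ended without control 4, control 5, NAC 4 or NAC 5. Slc38a6, at 5.70 to 12.8 CPM, passed the test in neither set.

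The proton-coupled carrier Slc36a4, which transports proline and tryptophan (chromosome 9, ENSMUSG00000043885), was the transporter whose direction turned between the sets. Control libraries 1 and 2 had 50.7 and 54.5 CPM and NAC libraries 1 and 2 had 30.5 and 39.0 CPM. Control libraries 3 to 5 had 25.9, 24.9 and 23.5 CPM, and NAC libraries 3 to 5 had 34.2, 37.7 and 35 CPM. The sets were far apart without NAC and overlapped with it, all NAC libraries lying between 30.5 and 39.0 CPM. It fell by 0.60 ± 0.11 on the log2 scale in libraries 1 and 2 (adjusted p = 0.000461) and rose by 0.53 ± 0.10 in libraries 3 to 5 (adjusted p = 0.00141), and the effects differed by -1.12 ± 0.15 (adjusted p = 9.36e-05). Over all libraries the value was -0.03 ± 0.25 (adjusted p = 0.956). Slc36a1, a proton-coupled carrier found on lysosomes, was at 10.3 to 14.5 CPM and passed the test in neither set.

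In SLC43, Slc43a1, which encodes the system L carrier LAT3 (chromosome 2, ENSMUSG00000027075), was at 3.90, 4.12, 7.74, 5.57 and 10.7 CPM in control libraries 1 to 5 and at 7.24, 7.71, 11.3, 10.7 and 11.7 CPM in NAC libraries 1 to 5. All NAC libraries lay above the controls of their set, control library 5 only just below NAC library 4. It rose by 0.90 ± 0.25 on the log2 scale in libraries 1 and 2 (adjusted p = 0.00731), and libraries 3 to 5 gave 0.49 ± 0.18 (adjusted p = 0.0581). Slc43a1 was called higher in libraries 3 to 5 when they were fitted alone, without NAC 1, NAC 2 or control 5, and under some other settings. With the replicate block the value over all libraries was 0.67 ± 0.17 (adjusted p = 0.0296), beside 0.61 ± 0.29 without it (adjusted p = 0.185). Slc43a3, known as a carrier of purine bases and not of amino acids, had 122, 124, 186, 188 and 178 CPM without NAC. With NAC it had 124, 125, 199, 198 and 195 CPM. In libraries 3 to 5 all NAC libraries lay above the controls. The gene passed the test in neither set (log2 0.02, adjusted p = 0.819, and 0.10, adjusted p = 0.153), but it was called higher in libraries 3 to 5 when they were fitted alone or without NAC 1 or NAC 2.

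Of the SLC6 genes, the taurine carrier Slc6a6 (chromosome 6, ENSMUSG00000030096) was at 328, 295, 334, 328 and 316 CPM without NAC and at 141, 189, 299.8, 317 and 289 CPM with it. The control libraries of both sets were at like levels, and NAC libraries 1 and 2 stood far below them. Slc6a6 fell by 0.91 ± 0.11 on the log2 scale in libraries 1 and 2, or 1.88-fold (adjusted p = 1.22e-05). The value in libraries 3 to 5 was -0.11 ± 0.09 (adjusted p = 0.372), and the effects differed by -0.80 ± 0.14 (adjusted p = 0.00069). Slc6a6 was called lower in libraries 3 to 5 when they were fitted alone or without NAC 1 or NAC 2.

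The glycine carrier Slc6a9 (chromosome 4, ENSMUSG00000028542) was at 7.01, 5.4, 53.8, 51.5 and 53.6 CPM without NAC and at 9.92, 8.68, 57.5, 61.6 and 59.5 CPM with it. All NAC libraries were above the controls of their set. It rose by 0.58 ± 0.14 on the log2 scale in libraries 1 and 2 (adjusted p = 0.0027), and the value in libraries 3 to 5 was 0.17 ± 0.08 (adjusted p = 0.126). The difference between them was 0.41 ± 0.16 (adjusted p = 0.053). Slc6a9 was called higher in libraries 3 to 5 when they were fitted alone or without NAC 1 or NAC 2. Ccdc24 overlaps its exons over 1429 bases on the other strand and was itself at 0 to 0.674 CPM. Slc6a20a was not tested.

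The untreated cells of the sets also differed in their transporters, which is given as a description with no test because the sets were told apart on these data. Of the 22 tested transporters, 5 were at least 2 times as high in control libraries 3 to 5 as in control libraries 1 and 2, or 22.7%, beside 6.98% of all genes tested. Slc7a3 was 18.5 times as high, Slc6a9 8.54 times, Slc1a4 4.22 times, Slc3a2 2.57 times and Slc7a5 2.04 times. Slc36a4 alone was at least 2 times as low, at 0.471 of its level in libraries 1 and 2, as were 5.15% of all genes tested. Slc6a6 was nearly level at 1.05. In 16 of the 22 the ratio was above 1, beside 49.9% of all genes. Slc7a5 exceeded Slc7a6 3.22 and 3.16 times per length in control libraries 1 and 2 and 7.68 to 7.97 times in control libraries 3 to 5.

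**Figure D4:**
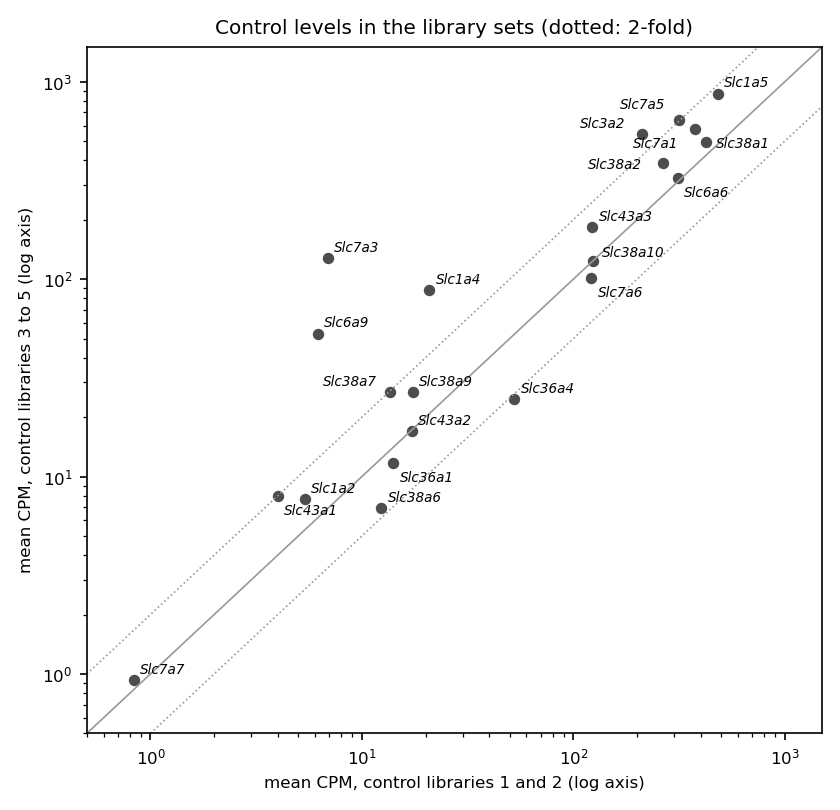
Mean CPM of each tested transporter in control libraries 3 to 5 (y axis) against control libraries 1 and 2 (x axis), both on log axes, with a solid line for equal levels and dotted lines for a difference of 2 times. Slc7a3 and Slc6a9 lie farthest above the line, at 18.5 and 8.54 times, and Slc36a4 lies farthest below it, at 0.471.

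Promoter windows are shown for the transporters that were called over all libraries, for Slc1a4 as the tested gene that rose in both sets and holds an amino acid response element core, and for Slc36a4, whose direction turned. RefSeq windows on GRCm38.p6, from 250 bases before to 50 after an annotated start, were at hand for 32 of the 44 transporters, 16 of the 22 tested. They are printed 5′ to 3′ on the strand of the gene, with motif matches in capitals.
Slc7a6, chr8:106168604-106168903, plus strand: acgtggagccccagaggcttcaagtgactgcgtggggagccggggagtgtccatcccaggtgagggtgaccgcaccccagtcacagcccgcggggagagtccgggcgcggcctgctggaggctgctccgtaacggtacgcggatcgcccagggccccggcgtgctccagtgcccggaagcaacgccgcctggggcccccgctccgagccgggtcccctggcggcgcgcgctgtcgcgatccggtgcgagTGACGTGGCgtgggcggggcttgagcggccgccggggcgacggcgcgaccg
Slc43a2, chr11:75531444-75531743, plus strand: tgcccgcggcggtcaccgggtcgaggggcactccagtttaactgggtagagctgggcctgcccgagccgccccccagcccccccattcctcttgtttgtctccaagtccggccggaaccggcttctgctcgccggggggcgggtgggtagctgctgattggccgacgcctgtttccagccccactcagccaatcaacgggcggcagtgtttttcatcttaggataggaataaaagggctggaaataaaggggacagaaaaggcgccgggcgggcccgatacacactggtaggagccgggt
Slc1a4, chr11:20332664-20332963, minus strand: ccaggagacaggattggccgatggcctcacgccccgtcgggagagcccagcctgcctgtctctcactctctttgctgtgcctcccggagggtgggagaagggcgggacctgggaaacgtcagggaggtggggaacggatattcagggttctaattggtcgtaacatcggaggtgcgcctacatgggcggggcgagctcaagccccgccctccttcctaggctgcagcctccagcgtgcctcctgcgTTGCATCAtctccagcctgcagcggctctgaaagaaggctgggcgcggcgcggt
Slc36a4, chr9:15709488-15709787, plus strand: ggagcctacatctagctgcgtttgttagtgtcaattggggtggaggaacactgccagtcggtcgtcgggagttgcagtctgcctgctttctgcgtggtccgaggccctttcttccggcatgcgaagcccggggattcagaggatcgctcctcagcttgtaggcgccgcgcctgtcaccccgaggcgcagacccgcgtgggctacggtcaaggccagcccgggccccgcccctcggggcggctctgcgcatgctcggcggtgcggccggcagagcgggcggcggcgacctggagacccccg
The motifs below were searched on both strands, overlaps allowed: TGATGNAA, the core of the amino acid response element bound by ATF4 dimers; CACGTG, the E-box bound by MYC and the TFEB family; and TGACNNNGC, the core of the antioxidant response element bound by NRF2. They occurred in 3.97%, 7.15% and 12.4% of all 32851 RefSeq windows of the same length. Among the 45 windows of the transporters, 3, 7 and 8 held them. Some windows of Slc7a6 and of Slc7a7 overlap and share a site, which is then counted in each. In the sequences above, the Slc1a4 window held the response element core on the opposite strand at position -4 from the start, and the Slc7a6 window held TGACGTGGC, a match to TGACNNNGC, at position -1. The Slc43a2 and Slc36a4 windows held none of the motifs. Of the 16 tested transporters with a window, 2 held the first motif, 3 the second (Slc36a1, Slc38a7 and Slc43a1) and 6 the third (Slc36a1, Slc38a2, Slc43a1, Slc6a9, Slc7a1 and Slc7a6). These are counts of genes, some with several windows, so the shares per window are no measure for them. A match describes letters in these windows and is not a binding site.

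Genes around the carriers were taken from 6 lists. Over all libraries, 1 of 38 tested genes of amino acid sensing and mTORC1 rose and 1 fell, with a median log2 fold change of -0.07. Sesn1, a sestrin that restrains mTORC1, rose from 27.6 ± 3.46 to 51.0 ± 8.41 CPM (SD, n = 5; log2 0.89 ± 0.13, edgeR adjusted p = 0.00466). Rraga, a Rag GTPase that brings mTORC1 to the lysosome, fell from 89.6 ± 2.74 to 63.6 ± 13.5 CPM (log2 -0.49 ± 0.13, adjusted p = 0.0392), a call that ended without any single control library or NAC 1, 2 or 3 (adjusted p = 0.0569 to 0.0817). The share of called genes in this list, 5.26%, was below that of all genes.

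In branched-chain amino acid catabolism 2 of 14 tested genes rose and 1 fell (21.4%, beside 11.6% of all genes). The transaminases that start this pathway went opposite ways. Bcat1, the cytosolic enzyme, fell from 216 ± 8.13 to 135 ± 38.4 CPM (log2 -0.68 ± 0.18, adjusted p = 0.0375), and Bcat2, the mitochondrial enzyme, rose from 42.9 ± 2.14 to 69.3 ± 24.0 CPM (log2 0.69 ± 0.20, adjusted p = 0.0466). Hibadh, an enzyme of valine breakdown, rose from 67.2 ± 3.76 to 87.1 ± 10.2 CPM (log2 0.38 ± 0.09, adjusted p = 0.0272). Each of these calls rested on single libraries. That of Bcat1 ended without any control library or NAC 1 (adjusted p = 0.0633 to 0.0734), that of Bcat2 without any control library, NAC 1 or NAC 2 (0.0587 to 0.104), and that of Hibadh without control 1, 3 or 4 or NAC 2 (0.0566 to 0.0696).

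Mitochondrial amino acid carriers gave 2 rises among 11 tested genes and no fall (18.2% called, beside 11.6% of all genes). Slc25a12, the aspartate and glutamate exchanger, rose from 76.0 ± 5.10 to 114 ± 12.7 CPM (log2 0.59 ± 0.09, adjusted p = 0.00571), and Sfxn3, a serine carrier, from 26.4 ± 2.58 to 38.4 ± 1.22 CPM (log2 0.54 ± 0.09, adjusted p = 0.00668). Their calls and that of Sesn1 held whichever library was left out. Among 10 tested carriers of other families, Slc16a10, an aromatic amino acid carrier, rose from 31.2 ± 2.99 to 39.6 ± 1.25 CPM (log2 0.34 ± 0.09, adjusted p = 0.0288), and among 16 regulators of transporter genes and turnover, Nedd4l, a ubiquitin ligase for membrane carriers, rose from 9.51 ± 1.5 to 15.5 ± 2.99 CPM (log2 0.71 ± 0.17, adjusted p = 0.024). The call of Slc16a10 ended without control 1, 3, 4 or 5 or NAC 3 or 4 (0.0551 to 0.0759), and that of Nedd4l without control 1, control 2 or NAC 2 (0.0518 to 0.0561).

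Of 17 tested enzymes of glutamine, glutamate, aspartate and proline metabolism, 0 were called by edgeR over all libraries and 3 had an unadjusted p below 0.05. Within libraries 1 and 2, 12 rose and 1 fell (76.5%, beside 60.5% of all genes). Within libraries 3 to 5, 2 rose and 4 fell (35.3%, beside 29%). The effects of the sets differed in 14 (82.4%, beside 41.9%). They were higher in libraries 1 and 2 for 13 of the 17, beside 21.9% of all genes. The following examples were chosen after their values were seen. Asns, asparagine synthetase, was at 76.8, 69.6, 467, 459.7 and 458 CPM in control libraries 1 to 5 and at 261, 199, 408, 400.3 and 428 CPM in NAC libraries 1 to 5. Asns rose by 1.65 ± 0.11 on the log2 scale in libraries 1 and 2 (adjusted p = 7.57e-08), and libraries 3 to 5 gave -0.16 (adjusted p = 0.151). Pycr1, an enzyme of proline synthesis, went from 3.17 and 3.52 to 22.7 and 21.1 CPM in libraries 1 and 2 (log2 2.71 ± 0.13, adjusted p = 5.24e-09) and from 43.9 to 45.3 CPM up to 53.8 to 60.8 CPM in libraries 3 to 5 (log2 0.34 ± 0.07, adjusted p = 0.00366). Atf4, the factor that drives many amino acid carrier and synthesis genes under shortage, was at 429 and 427 CPM in control libraries 1 and 2 and 369 and 255 CPM in NAC libraries 1 and 2 (log2 -0.46 ± 0.12, adjusted p = 0.00576). In libraries 3 to 5 it was at 858, 877 and 902 CPM without and 819, 788 and 816 CPM with NAC (log2 -0.12 ± 0.10, adjusted p = 0.381).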

How the data were processed

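Bulk RNA sequencing of 10 libraries was grouped by title and agent label. Per the file headers, each gene and library has a read count and an FPKM value. The deposited read counts, whole numbers, entered the tests unchanged. The deposited FPKM values, which match count over gene length and library total (checked at 50 or more reads), served only to compare levels between genes. GRCm38 and mm10 are the builds in the submitters' processing notes; aligner, counter and strand setting were not given in the sources used here. Gene coordinates in the table do not follow a GRCm38 annotation, so genes are placed by chromosome only.

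Tests used edgeR 4.0.16 in R 4.3.3 (filterByExpr, TMM, glmQLFit with robust estimation, quasi-likelihood F test, two-sided, no covariate) with Benjamini-Hochberg adjustment over 11403 genes and a threshold of 0.05. A standard error is the absolute log2 fold change over the root of F. Effects within libraries 1 and 2 or 3 to 5, and their difference, are contrasts from a single model in which every group by set combination has its own term. CPM values of single genes are TMM-normalized. The sums of the marker lists, their genes below 1 CPM and the CPM equal to 3 reads were scaled by library size alone. The steps were tested on simulated data. Depth of 13.3 to 17.71 M reads bounds counting error only.

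The transporters, library sets, gene lists, tests and naming rule were chosen with earlier results of these data known. Values in every library are given for transporters called over all libraries, with effects that differed between the sets or in opposite directions, the highest of each family by mean FPKM, and Slc3a2, Slc7a5, Slc1a5 and Slc38a2. Those of Slc1a4, Slc38a9, Slc43a1 and Slc6a9 were added after they had been seen. From each list up to 3 rising and 3 falling called members of smallest adjusted p are named. Deviations of same-numbered libraries from their group mean correlated (r 0.485 to 0.596 across genes). Other numbers of the same set gave 0.468 to 0.583 and numbers of different sets -0.568 to -0.454, and 3 of 10 libraries had their best match in their own number. The ranges within a set overlap, so these values do not show that libraries are paired by number. The coefficient of variation between libraries was 26.6% by group, 16.4% with the number as block and 7.43% with group and set.

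Alternatives covered size factors and the Wald test of DESeq2 1.42.0, library size alone, limma-voom (limma 3.58.1), other filters on low counts, the replicate block, a set term, each set alone, no robust estimation and each library left out in turn.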

Additional observations from a re-analysis of the deposited data

Results flagged for a closer look

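The effect of NAC differed between libraries 1 and 2 and libraries 3 to 5 in 9 of the 22 tested transporters, by the test of the difference itself in edgeR; 41.9% of all genes tested differed likewise. The values are log2 fold changes in libraries 1 and 2 minus those in libraries 3 to 5. Among the neutral amino acid carriers, the difference was -0.93 for Slc38a1, -0.75 for Slc38a2 and -0.49 for the lysosomal Slc38a7. It was -0.24 for the system L light chain Slc7a5 and -0.53 for the light chain Slc7a6. The arginine carriers had opposite signs, with -0.65 for Slc7a1 and 1.54 for Slc7a3. The taurine carrier Slc6a6 differed by -0.80 and the proton-coupled Slc36a4 by -1.12. Libraries 1 and 2 are also those that carried Cd4. In them the share of ribosomal protein reads and the sum of the CD8 list, mostly general T cell genes, were higher with NAC. The part of these in the differences was not tested.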

How the results depend on the processing

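Over all libraries 1 transporter was called higher and 1 lower. The higher count became 4 with the replicate block, 5 with a set term, 7 in libraries 3 to 5 alone and 3 in libraries 1 and 2 alone. The lower count became 0 with library size alone, with genes of at least 1 read and with the replicate block, 6 with a set term, 8 in libraries 3 to 5 alone and 8 in libraries 1 and 2 alone. Leaving out each library in turn gave 1 to 1 higher and 0 to 1 lower. Within libraries 1 and 2, the 6 higher became 3 when fitted alone, of which Slc7a3 and Slc43a1 were among the 6 and Slc7a4 was added, 7 with genes of at least 1 read, and 4 to 6 without single libraries. The 9 lower became 8 alone and 9 to 10 without single libraries. Within libraries 3 to 5, the 4 higher became 7 alone and 2 to 7 without single libraries, and the 3 lower became 8 alone and 0 to 8. The 9 differences between the sets became 7 to 13. Over the pathway lists, the 7 higher became 16 with DESeq2's Wald test, 13 with the block, 26 with a set term, 23 in libraries 3 to 5 alone, 30 in libraries 1 and 2 alone and 3 to 8 without single libraries. The 2 lower became 5, 5, 13, 23, 13 and 0 to 3 in that order. Of all genes tested, 11.6% were called over all libraries, 19.8% when blocked by library number and 36.4% after adding the set. Fitted alone, libraries 3 to 5 gave 48.7% and libraries 1 and 2 gave 43.8%. The list counts thus grew in fits where the share of all genes grew too, and do not by themselves show a change particular to the lists. The share for the Wald test is not given here. The pathway list alternatives were chosen after seeing the data, and the cause of the changed counts was not tested.

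Slc36a4, Slc7a3 and Slc43a3, which did not pass the test over all libraries, changed sign. For Slc36a4, at -0.03, the log2 value was 0.0041 with library size alone, 0.059 with voom, 0.067 with the replicate block, 0.067 once a set term was added, 0.53 in libraries 3 to 5 alone and -0.14 to 0.18 without single libraries. Slc7a3, at 0.07, was at -0.026 in libraries 3 to 5 alone and -0.23 to 0.33 without single libraries. Slc43a3, at 0.08, was at -0.0025 in libraries 1 and 2 alone and -0.0058 to 0.17 without single libraries. Slc43a2 kept its call over all libraries under each alternative other than libraries 1 and 2 alone. Of the 22 untested transporters, 12 stayed under 3 reads in every library, where a difference was not detectable at this depth.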
